A study of Mus musculus with 8 samples.

Results

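The genes described here encode the machinery that copies DNA and the regulators that take a cell from G1 into S phase. The set holds 43 genes, chosen by name from the 49671 gene rows of the deposited count files by a rule that holds no measured value, although earlier results of these data were known when it was drawn up. All 43 passed the filter on low counts and were among the 14887 genes tested. They fall into 9 roles, namely the helicase subunits (6 genes), origin licensing (5), origin firing (5), polymerases and primase (7), the sliding clamp and its loader (5), Okazaki fragment maturation (2), deoxynucleotide synthesis (4), G1/S cyclins and E2F factors (5), and chromatin and histone supply (4).

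Polyadenylated RNA was sequenced from 8 mouse samples, 4 of mice labelled as BMPR2 DELX mutants and 4 of ROSA animals, the control that the study names. The labels call all samples adipocytes and give no age, sex, strain, culture or dissection detail. They do not say what DELX stands for, how or in which cells the mutation is made, or if each sample is its own animal. The p-values therefore measure the spread between these samples, which may be technical. Each library held between 28799445 and 43684785 counts in gene rows. Bmpr2, the BMP type II receptor gene named in the label, had 211 ± 17.6 CPM (counts scaled to 1 common library total) in BMPR2 DELX, against 197 ± 17.05 CPM in ROSA (SD, n = 4 each), a log2 fold change of 0.10 ± 0.08 (SE, edgeR adjusted p 0.47), and a count over the whole gene says nothing of single exons. The 7 adipocyte markers Adipoq, Lep, Plin1, Cidec, Cfd, Retn and Slc2a4 each stayed under 1 CPM in every library, and their summed level was 0.137 to 0.323 CPM in BMPR2 DELX, against 0.174 to 0.363 CPM in ROSA, so the labelled cell type was not visible in its defining genes. Summed fibroblast markers (Col1a1, Col1a2, Pdgfra, Pdgfrb, Dcn, Lum, Thy1) reached 10170 to 14090 CPM in BMPR2 DELX, against 9042 to 11450 in ROSA libraries. Most of that sum was Col1a1, with group means of 6300 (BMPR2 DELX) and 4974 (ROSA), and Col1a2, with 4731 and 4127. Dcn averaged only 21.8 and 13.2 in the same order, and Lum, at most 1.32 CPM in any library, failed the filter. Thy1 alone had its lower mean in the mutants, at 219.5 against 298.3 CPM. Summed smooth muscle markers (Acta2, Tagln, Myh11, Cnn1) were 9012 to 11650 CPM in BMPR2 DELX, against 10060 to 13320 CPM in ROSA.

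Replication starts at origins where ORC, Cdc6 and Cdt1 load a ring of Mcm2 to Mcm7 onto DNA in G1, a step called licensing that geminin (Gmnn) blocks after S phase begins. At the G1/S boundary cyclin E with its kinase and the kinase that Dbf4 activates let Cdc45 and the GINS complex join the ring, which turns it into a working helicase. DNA polymerase alpha with primase then lays primers, polymerases delta and epsilon extend them on the sliding clamp Pcna, and Fen1 and Lig1 join the lagging strand. Much of this gene set is transcribed in late G1 and S phase under E2F factors, with the retinoblastoma family as their repressors, so in a mixture of cells its RNA level follows how many cells are in S phase as well as how much each cell makes.

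Promoter windows are shown because many genes of the set hold a regulatory word, that of E2F factors. The choice of genes did not read sequences. Much of the set is known to be transcribed under E2F factors, however, so the share given below is no independent result. RefSeq windows (GRCm38.p6, 250 bases before to 50 bases after a transcript start, 300 bases in all) were found for 35 of the 43 genes, and Ccne2, Gins1, Gins2, Gmnn, Mcm4, Pole, Prim2 and Rfc2 had no entry. The E2F words TTTGGCGC, TTTCCCGC, TTTCGCGC and TTTGCCGC were searched on both strands, with overlapping matches counted separately. At least 1 word was found for 15 of the 35 genes (42.9%), against 4.64% of the 10686 tested genes with a window and 2.60% of all 27025 genes in the table. The word is not particular to the set, since 24.5% of 49 further pathway genes, taken up below, also held one. A gene counted if any of its windows held a word. Counted by window, 36.6% of the 41 windows of the set held one, against 3.83% of 13680 windows of tested genes. The 5 windows below belong to Lig1, the one gene of the set that passed the test, and to the 4 helicase subunit genes that hold a word. They lie in GRCm38.p6 for Lig1 at chr7:13278576-13278875 (plus strand), Mcm3 at chr1:20820263-20820562 (minus strand), Mcm5 at chr8:75109259-75109558 (plus strand), Mcm6 at chr1:128359656-128359955 (minus strand), Mcm7 at chr5:138171834-138172133 (minus strand), each printed along the gene's strand with the E2F words in capitals.
Lig1: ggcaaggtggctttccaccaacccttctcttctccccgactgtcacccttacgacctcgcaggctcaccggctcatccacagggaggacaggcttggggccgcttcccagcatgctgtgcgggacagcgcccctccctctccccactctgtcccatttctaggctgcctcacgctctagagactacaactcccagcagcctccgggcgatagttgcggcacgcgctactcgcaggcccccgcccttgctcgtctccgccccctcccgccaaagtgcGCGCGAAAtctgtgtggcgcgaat
Mcm3: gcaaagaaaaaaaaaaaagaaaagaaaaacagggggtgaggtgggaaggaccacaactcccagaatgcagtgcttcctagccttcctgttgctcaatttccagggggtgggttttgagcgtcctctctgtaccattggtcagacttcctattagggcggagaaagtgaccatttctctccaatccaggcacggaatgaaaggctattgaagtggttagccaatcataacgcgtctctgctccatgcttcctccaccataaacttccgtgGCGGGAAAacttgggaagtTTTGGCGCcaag
Mcm5: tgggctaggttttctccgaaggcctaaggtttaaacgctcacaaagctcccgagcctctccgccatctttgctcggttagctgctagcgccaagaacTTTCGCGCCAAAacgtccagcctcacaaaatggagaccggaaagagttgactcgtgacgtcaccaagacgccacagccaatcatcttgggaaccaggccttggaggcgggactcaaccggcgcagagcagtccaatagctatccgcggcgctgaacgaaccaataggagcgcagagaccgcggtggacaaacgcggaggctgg
Mcm6: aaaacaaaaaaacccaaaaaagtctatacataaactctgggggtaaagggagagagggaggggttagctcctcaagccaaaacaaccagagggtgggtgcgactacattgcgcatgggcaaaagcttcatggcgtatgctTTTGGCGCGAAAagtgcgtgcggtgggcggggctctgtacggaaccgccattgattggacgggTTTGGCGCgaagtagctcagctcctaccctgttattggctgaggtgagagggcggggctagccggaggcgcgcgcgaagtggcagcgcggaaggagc
Mcm7: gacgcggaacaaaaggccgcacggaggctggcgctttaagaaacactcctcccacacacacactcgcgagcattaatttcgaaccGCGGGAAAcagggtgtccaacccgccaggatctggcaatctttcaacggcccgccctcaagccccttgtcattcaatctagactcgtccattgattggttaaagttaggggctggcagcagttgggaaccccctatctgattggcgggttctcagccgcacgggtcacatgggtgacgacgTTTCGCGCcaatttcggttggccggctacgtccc

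In the Lig1 window the word reads as GCGCGAAA, the reverse complement of TTTCGCGC, and begins at base 27 of the transcript, for the start used here, the middle of 3 that RefSeq lists. For a gene with more than 1 window, the window with the most E2F words was the one chosen to be printed. The other Lig1 windows hold no word, and neither does a second Mcm7 window at chr5:138171217-138171516. Mcm3 holds its words at bases 20 and 39 of the transcript, and the printed Mcm7 window holds one at 165 bases before the start and one at base 17. In Mcm5 and Mcm6 a pair of words on opposite strands overlaps by 4 letters, beginning 153 and 149 bases before the start in Mcm5 and 110 and 106 bases before it in Mcm6, which has a further word at 47 bases. More than 1 word in a window was found in 5 genes, the 4 helicase genes shown and the clamp loader gene Rfc3. The CCAAT word of NF-Y was in 60% of the 35 genes, 42.7% of the tested genes with a window and 41.1% of all genes with a window. The CHR words TTTGAA and TTCGAA, which mark many genes of mitosis, were in 22.9% of the 35 genes and 76.9% of 26 mitotic genes. They were in 16.3% of the tested genes with a window and 21.7% of all genes with a window. The 15 genes with an E2F word had a median log2 fold change of 0.30 and the 20 without one a median of 0.12, values given as a description of these windows. A match is a string of letters and not a measured site, and no match says only that the letters are absent from this window.

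Most of the 43 genes had slightly higher levels in BMPR2 DELX than in ROSA, and a single gene, the DNA ligase gene Lig1, passed the test. The log2 fold change of BMPR2 DELX over ROSA was positive for 38 genes and negative for 5, against 50.7% positive among all genes tested. The median over the 43 genes was 0.18, against 0.0045 over all genes tested, and 42 of the 43, all but E2f2, differed by less than 1.5-fold. At an adjusted p below 0.05 (edgeR quasi-likelihood test, Benjamini-Hochberg over all genes tested), 1 gene of the set was called higher, where 3.96% of all genes were called higher, and 0 lower, where 5.15% were called lower (9.1% in either direction). The share of the set that was called, 1 of 43, is therefore not above the background. At an unadjusted p below 0.05, 14 genes of the set were higher (12.9% of all genes) and 1 was lower (13.4% of all genes). DESeq2 called 7 of the set higher (6.83% of all genes) and 0 lower (7.49%), while limma voom called 1 higher (5.07%) and 0 lower (5.92%). With no count filter edgeR called 5 of the set higher (2.38% of all genes) and 0 lower (2.3%), and with unstranded counts 2 higher (4.31%) and 0 lower (4.63%). Of all genes tested, 589 were higher and 766 lower with TMM factors, and 734 (4.93%) were higher and 606 (4.07%) lower with upper-quartile factors, and the single call in the set was Lig1 with either. The 43 genes share libraries and vary together, so the number with one sign is not a count of independent events.

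**Figure D1:**
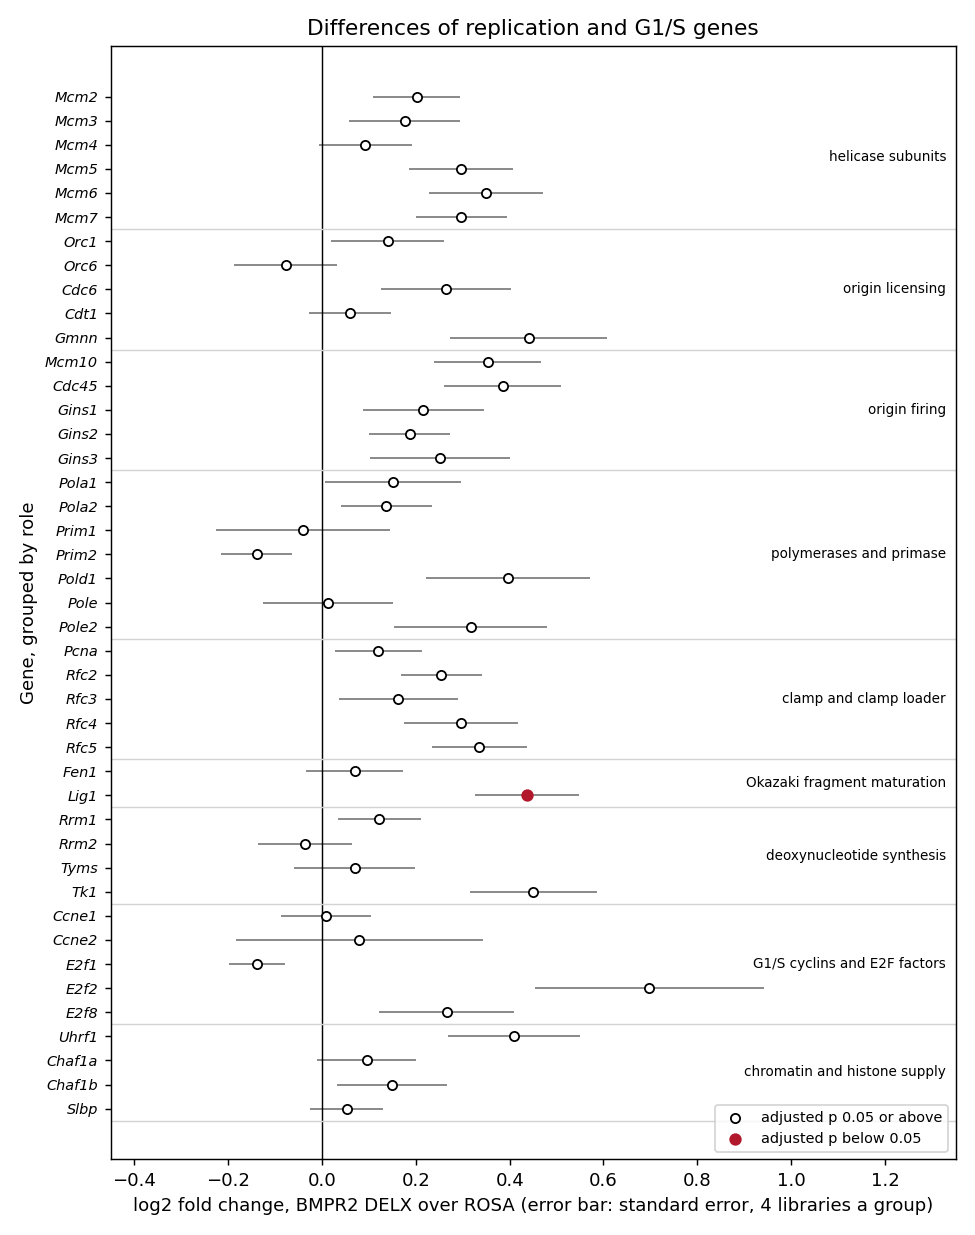
Log2 fold change of BMPR2 DELX over ROSA (x axis) for the 43 genes grouped by role (y axis), with the standard error as bar, 4 libraries a group. The filled point, Lig1 at 0.44, is the gene with an adjusted p below 0.05, and 38 of the 43 points lie right of 0.

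The level of the set varied widely among the BMPR2 DELX libraries. The score of a library, the mean log2 CPM of the 43 genes with a prior count of 2, was 5.005, 4.87, 4.82 and 4.53 in BMPR2 DELX 1 to 4, against 4.55, 4.57, 4.76 and 4.59 in ROSA 1 to 4. BMPR2 DELX 1, 2 and 3 lay above every ROSA library, and BMPR2 DELX 4 lay below every ROSA library. The group means were 4.81 ± 0.20 in BMPR2 DELX and 4.62 ± 0.097 in ROSA (SD, n = 4 each), a difference about as large as the SD of the BMPR2 DELX scores. BMPR2 DELX 4 was the lowest of its group for 42 of the 43 genes, E2f2 being the exception, while over all genes tested it was the lowest of its group for 21.8%. Among the controls, ROSA 3 was the highest of its group for 36 of the 43 genes, against 27.0% of all genes tested. BMPR2 DELX 1 was the highest of all 8 libraries for 26 genes. It was the highest of its own group for 28 of the 43 genes, against 27.5% of all genes tested. The coefficient of variation (SD over mean) was larger in BMPR2 DELX for 38 genes, with a median over genes of 14.6% in BMPR2 DELX and 7.32% in ROSA. It was not computed over all genes tested, so this wider spread is not shown to be particular to the set.

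**Figure D2:**
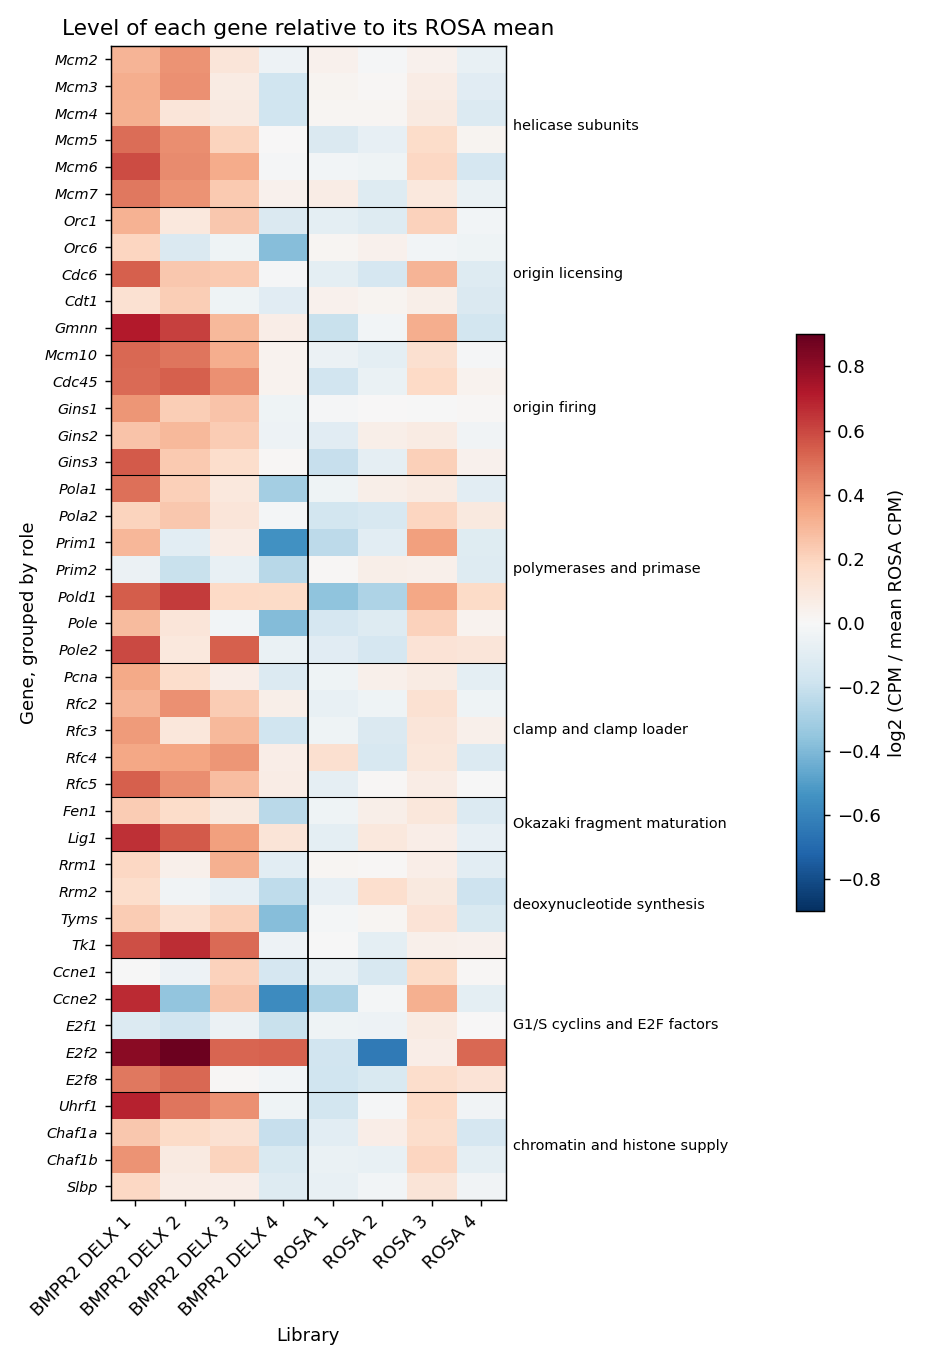
Level of each gene in each library as log2 of CPM over the mean ROSA CPM, with libraries across, BMPR2 DELX left of the line and ROSA right of it, and genes grouped by role down the page. The columns of BMPR2 DELX 1 to 3 are mostly red, BMPR2 DELX 4 is pale or blue with a median of -0.058, and ROSA 3 is the reddest control with a median of 0.11.

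Leaving out 1 library changed the calls. With edgeR, 0 genes of the set were called in 6 of the 8 fits without 1 library, with 10 to 15 genes higher at an unadjusted p below 0.05, and without ROSA 4 the single call was E2f2. Over all genes those 6 fits called from 213 (without ROSA 2) to 496 (without BMPR2 DELX 1) higher, against 589 with all libraries. Without BMPR2 DELX 4 the set had 10 higher calls (Lig1, Rfc5, Rfc2, Tk1, Cdc45, Mcm10, Mcm5, Mcm6, Mcm7 and Uhrf1), where 3.16% of all genes were called higher, and 0 lower (3.38% of all genes), and its median log2 fold change was 0.28. Without ROSA 3, the control with the highest score, 0 of the set were called higher (2.76% of all genes) and 0 lower (3.79%), with 15 higher at an unadjusted p below 0.05. The median ran from 0.13 without BMPR2 DELX 1 to 0.28 without BMPR2 DELX 4. Summed macrophage markers were 48.8, 39.3, 70.1 and 51.4 CPM in BMPR2 DELX 1 to 4, against 22.9 to 36.1 CPM in ROSA, and 4 of the 10 passed the filter, while Fcgr1 had at most 1 count in any library and Cd68 was called higher, at a mean of 6.68 CPM in BMPR2 DELX, against 3.80 in ROSA libraries. Csf1r, not called, was the largest part of that sum, at a mean of 29.9 CPM in BMPR2 DELX, against 21.3 CPM in ROSA. Lyz2 and Mpeg1, which passed the filter and were not called, averaged 11.85 and 2.495 CPM in BMPR2 DELX, against 3.963 and 0.639 in ROSA libraries. Of the 10 markers 6 stayed under 1 CPM in every library. Among these, Ptprc had a lower mean in BMPR2 DELX (0.256 CPM) than in ROSA (0.362 CPM), as did Fcgr1. Adgre1, C1qa, C1qb and C1qc had higher means in BMPR2 DELX, at 0.227, 0.377, 0.213 and 0.412 CPM. Their ROSA means were 0.0628, 0.0732, 0.0199 and 0.091 CPM. Summed endothelial markers were 1471, 1456, 311 and 707 CPM in BMPR2 DELX 1 to 4, against 578 to 1294 CPM in ROSA, and 9 of the 10 passed the filter, with Cldn5 at 0 in BMPR2 DELX 3. Summed epithelial markers were 36.1, 55.9, 55.5 and 23.4 CPM in BMPR2 DELX 1 to 4, against 29.6 to 45.1 CPM in ROSA, and 6 of the 8 passed the filter, with Epcam at 0 in BMPR2 DELX 1, BMPR2 DELX 4 and ROSA 1. Within that sum Pax8 was called higher, at a mean of 1.94 CPM in BMPR2 DELX, against 0.165 CPM in ROSA. Krt8 and Krt18, not called, averaged 5.29 and 15.1 CPM in BMPR2 DELX, against 0.549 and 5.63 CPM in ROSA, while Krt19, not called either, averaged 12.6 CPM in BMPR2 DELX, against 25.6 CPM in ROSA. The part of these cells in the level of the set was not tested. In bulk RNA a different share of cells in S phase and a different amount of RNA per cell cannot be told apart, in either direction.

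The 6 subunits of the replicative helicase ring were all on the positive side, and none of the 6 passed the test. At an unadjusted p below 0.05, 3 of them were higher (12.9% of all genes). Mcm7 had 72.3, 68.7, 61.2 and 53.4 CPM in BMPR2 DELX 1 to 4, against 54.5, 48.0, 55.6 and 49.9 CPM in ROSA 1 to 4. BMPR2 DELX 1 to 3 were above all controls and BMPR2 DELX 4 lay among them, with a log2 fold change of 0.30 ± 0.10 (edgeR adjusted p 0.085). Mcm4, which has the highest level of the ring per length, had 95.2, 81.8, 80.4 and 67.1 CPM in BMPR2 DELX 1 to 4, against 76.9, 76.9, 80.5 and 69.9 CPM in ROSA 1 to 4. BMPR2 DELX 1 and 2 were above all controls, BMPR2 DELX 3 was among them and BMPR2 DELX 4 below them, and its log2 fold change was 0.09 ± 0.10. The log2 fold changes of the others were 0.35 ± 0.12 for Mcm6, 0.30 ± 0.11 for Mcm5, 0.20 ± 0.09 for Mcm2 and 0.18 ± 0.12 for Mcm3. Levels scaled by exon length, as mean CPM per kilobase of all annotated exons, were 22.6 in BMPR2 DELX and 21.2 in ROSA for Mcm4, 21.6 and 19.1 for Mcm3, and 11.8 and 10.2 for Mcm2, the lowest of the ring. Mcm5, Mcm6 and Mcm7 lay between, at 14.4 to 17.2 in BMPR2 DELX and 11.75 to 14.0 in ROSA. In ROSA the library ranges of Mcm4 and Mcm3 overlapped, as did those of Mcm5 and Mcm6 and those of Mcm6 and Mcm7. Within each ROSA library, however, Mcm4 was above Mcm3 and Mcm5 above Mcm6. The order of Mcm6 and Mcm7 changed between libraries, at 12.25 and 12.31 in ROSA 1, against 12.1 and 10.84 in ROSA 2. The Mcm7 gene also hosts Mir25, Mir93 and Mir106b on the same strand, which held no counts.

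**Figure D3:**
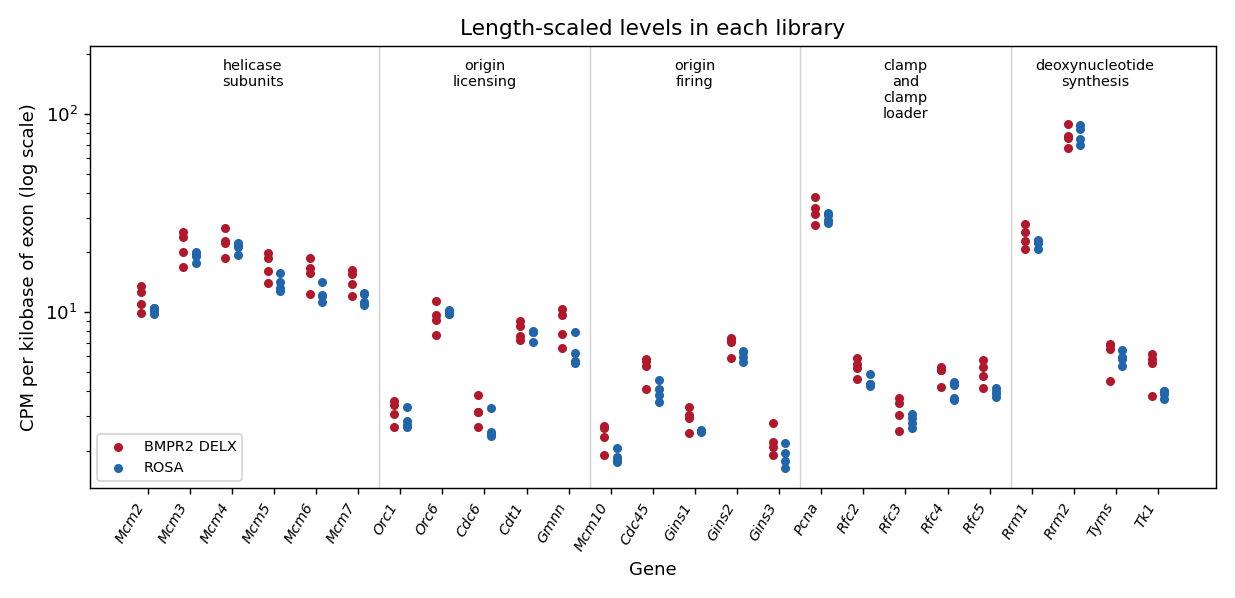
CPM per kilobase of annotated exon on a log axis for the genes of 5 roles, with BMPR2 DELX libraries left of ROSA libraries for each gene and 1 point per library. Rrm2 stands highest, at 67.4 to 88.4 in BMPR2 DELX and 69.5 to 88.0 in ROSA, and the helicase subunits stand above the licensing and firing genes other than Orc6 and Gmnn, whose upper values overlap those of Mcm2.

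Among the licensing genes, geminin had the smallest p. Gmnn, the inhibitor of Cdt1, had 15.2, 14.2, 11.4 and 9.68 CPM in BMPR2 DELX 1 to 4, against 8.08, 9.12, 11.7 and 8.29 CPM in ROSA 1 to 4. The groups overlapped through ROSA 3, and its log2 fold change was 0.44 ± 0.17 (edgeR adjusted p 0.13). Orc6, a subunit of the origin recognition complex and the licensing gene with the highest level per length, had 28.1, 22.6, 24.01 and 18.9 CPM in BMPR2 DELX 1 to 4, against 25.0, 25.4, 24.2 and 24.05 CPM in ROSA 1 to 4. BMPR2 DELX libraries lay on both sides of a tight control range, and the log2 fold change was -0.08 ± 0.11. The log2 fold changes were 0.26 ± 0.14 for the loader gene Cdc6, 0.14 ± 0.12 for Orc1 and 0.06 ± 0.09 for Cdt1.

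The genes that turn the licensed ring into a moving helicase were on the positive side in all 5 cases. Mcm10, which helps to activate the helicase, had 20.6, 20.1, 18.1 and 14.7 CPM in BMPR2 DELX 1 to 4, against 13.8, 13.5, 15.9 and 14.2 CPM in ROSA 1 to 4. ROSA 3 was above BMPR2 DELX 4 and below the other mutant libraries, and the log2 fold change was 0.35 ± 0.11 (edgeR adjusted p 0.081). Cdc45, a permanent partner of the active helicase, had 19.9, 20.4, 18.7 and 14.3 CPM in BMPR2 DELX 1 to 4, against 12.4, 13.5, 15.9 and 14.4 CPM in ROSA 1 to 4. Its log2 fold change was 0.39 ± 0.12 (edgeR adjusted p 0.082), with BMPR2 DELX 4 below ROSA 3 and ROSA 4 and the other mutant libraries above all controls. Gins2, the GINS subunit gene with the highest level per length among these 5 genes, had 29.6, 30.3, 29.0 and 23.98 CPM in BMPR2 DELX 1 to 4, against 23.1, 25.7, 26.1 and 24.3 CPM in ROSA 1 to 4, again with BMPR2 DELX 4 inside the control range. The log2 fold changes of the GINS genes were 0.25 ± 0.15 for Gins3, 0.22 ± 0.13 for Gins1 and 0.19 ± 0.09 for Gins2.

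Polymerase and primase genes had members on both sides of 0. Pold1, the catalytic subunit of polymerase delta, had 31.4, 33.3, 24.4 and 24.3 CPM in BMPR2 DELX 1 to 4, against 16.8, 17.8, 27.4 and 24.2 CPM in ROSA 1 to 4. Here the controls split, with ROSA 3 and ROSA 4 within or close to the mutant values and ROSA 1 and ROSA 2 below them, and the log2 fold change was 0.40 ± 0.17 (edgeR adjusted p 0.18). Pole2, the accessory subunit of polymerase epsilon, had a log2 fold change of 0.32 ± 0.16, while its catalytic subunit Pole had 0.01 ± 0.14. The polymerase alpha genes Pola1 and Pola2 had log2 fold changes of 0.15 ± 0.14 and 0.14 ± 0.10. The primase genes Prim1 and Prim2, which make the RNA primers with polymerase alpha, had -0.04 ± 0.19 and -0.14 ± 0.08.

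All 5 genes of the clamp and its loader were on the positive side. Rfc5, a small subunit of the clamp loader, had 26.7, 24.6, 22.3 and 19.28 CPM in BMPR2 DELX 1 to 4, against 17.3, 18.6, 19.25 and 18.4 CPM in ROSA 1 to 4. The groups did not overlap, since BMPR2 DELX 4 stood just above ROSA 3, and the log2 fold change was 0.34 ± 0.10 (edgeR adjusted p 0.066). Pcna, the sliding clamp and the highest of these genes per length, had 91.2, 80.4, 75.1 and 66.0 CPM in BMPR2 DELX 1 to 4, against 70.1, 74.1, 75.5 and 67.8 CPM in ROSA 1 to 4. BMPR2 DELX 3 and 4 were within or below the control range, and the log2 fold change was 0.12 ± 0.09. The other loader genes had log2 fold changes of 0.30 ± 0.12 for Rfc4, 0.25 ± 0.09 for Rfc2 and 0.16 ± 0.13 for Rfc3. An annotated Pcna pseudogene, Pcna-ps2, held at most 30 counts in a library.

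Lig1, the ligase that seals Okazaki fragments, rose in BMPR2 DELX (GRCm38 chromosome 7, 13277283 to 13311433, plus strand, ENSMUSG00000056394). It had 52.7, 49.1, 43.3 and 36.3 CPM in BMPR2 DELX 1 to 4, against 31.5, 35.7, 34.8 and 31.8 CPM in ROSA 1 to 4. Every BMPR2 DELX library was above every ROSA library, although BMPR2 DELX 4 exceeded ROSA 2 by less than 1 CPM. The means were 45.3 ± 7.18 CPM in BMPR2 DELX, against 33.5 ± 2.10 CPM in ROSA, with a log2 fold change of 0.44 ± 0.11 (SE, edgeR adjusted p 0.038). The call was lost in 7 of the 8 fits without 1 library (adjusted p 0.058 to 0.098) and held without BMPR2 DELX 4 (adjusted p 0.012), with log2 fold changes of 0.36 to 0.53. The flap nuclease gene Fen1, which works just before the ligase, had 39.5, 37.7, 35.7 and 28.5 CPM in BMPR2 DELX 1 to 4, against 32.7, 34.9, 36.2 and 30.8 CPM in ROSA 1 to 4. BMPR2 DELX 1 and 2 were above all controls and BMPR2 DELX 4 below them, and the log2 fold change was 0.07 ± 0.10. The difference between the responses of Lig1 and Fen1 was not tested.

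**Figure D4:**
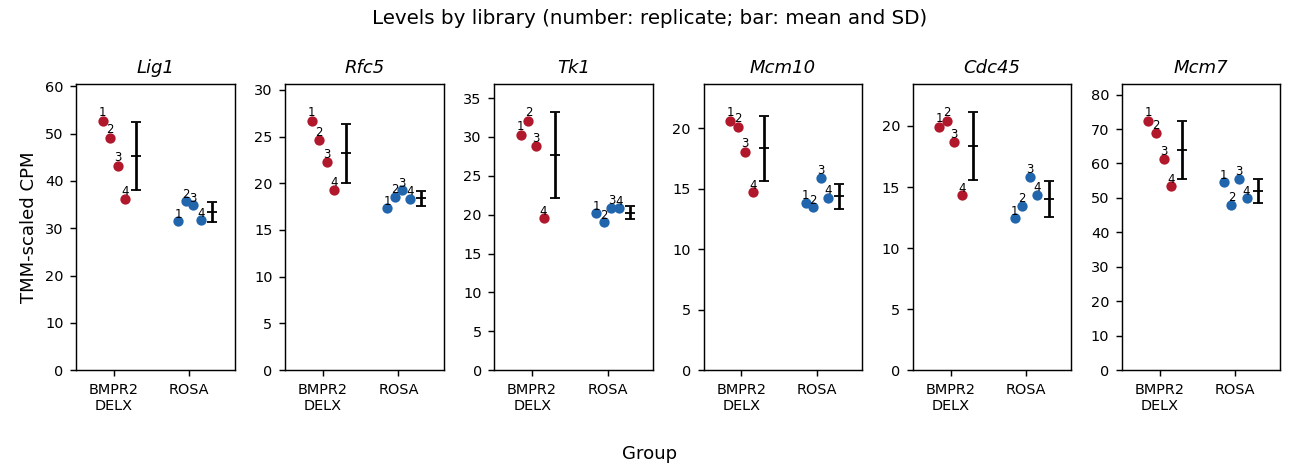
TMM-scaled CPM by library (numbers are replicates) for the 6 genes of the set with the smallest p, with the group mean and SD as bar at the right of each group. In each panel BMPR2 DELX 1 to 3 stand above the ROSA mean and BMPR2 DELX 4 is the lowest mutant library, clear of the controls by a small margin in Lig1 and Rfc5 and among them in the others.

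None of the 4 deoxynucleotide genes passed the test, with 1 higher at an unadjusted p below 0.05 (12.9% of all genes). They include Rrm2, the highest of the 43 per length at a mean of 77.2 CPM per kilobase in BMPR2 DELX and 79.1 in ROSA. Tk1, the salvage thymidine kinase of S phase, had 30.2, 32.1, 28.8 and 19.6 CPM in BMPR2 DELX 1 to 4, against 20.2, 19.1, 20.9 and 20.8 CPM in ROSA 1 to 4. BMPR2 DELX 4 lay inside a narrow control range and the other mutant libraries were well above it, with a log2 fold change of 0.45 ± 0.14 (edgeR adjusted p 0.067). Rrm2, the small subunit of ribonucleotide reductase, had 245, 215, 209 and 187 CPM in BMPR2 DELX 1 to 4, against 208, 244, 232 and 193 CPM in ROSA 1 to 4. Its groups overlapped almost fully and its log2 fold change was -0.04 ± 0.10. The large subunit gene Rrm1 had a log2 fold change of 0.12 ± 0.09 and the thymidylate synthase gene Tyms 0.07 ± 0.13.

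The regulators of entry into S phase included the largest log2 fold change of the set and one of the lowest. E2f2, an activating E2F factor, had 2.59, 2.71, 2.11 and 2.12 CPM in BMPR2 DELX 1 to 4, against 1.305, 0.946, 1.53 and 2.10 CPM in ROSA 1 to 4. The groups did not overlap, but BMPR2 DELX 3, BMPR2 DELX 4 and ROSA 4 were nearly equal, and the log2 fold change was 0.70 ± 0.24 (edgeR adjusted p 0.10). E2f1, another activating factor, had 41.6, 40.2, 43.7 and 39.4 CPM in BMPR2 DELX 1 to 4, against 44.1, 44.0, 47.9 and 45.5 CPM in ROSA 1 to 4. Every BMPR2 DELX library was below every ROSA library, with a small log2 fold change of -0.14 ± 0.06 (edgeR adjusted p 0.18). Across the set, 3 genes had all BMPR2 DELX libraries above ROSA (8.32% of all genes) and 1 had all below (9.65% of all genes). The repressive factor gene E2f8, itself a target of E2F, had a log2 fold change of 0.27 ± 0.14. The cyclin genes Ccne1 and Ccne2 had 0.01 ± 0.10 and 0.08 ± 0.26. Ccne2 was the most uneven gene of the set by its standard error, with 30.1, 14.8, 22.5 and 12.8 CPM in BMPR2 DELX 1 to 4, against 15.6, 18.7, 23.6 and 17.8 CPM in ROSA 1 to 4.

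In the chromatin genes, Uhrf1 had both the smallest p and the highest level per length. This reader of hemimethylated DNA, which brings the maintenance methyltransferase to new DNA, had 77.7, 67.3, 64.0 and 46.9 CPM in BMPR2 DELX 1 to 4, against 42.9, 47.9, 54.6 and 47.05 CPM in ROSA 1 to 4. The log2 fold change was 0.41 ± 0.14 (edgeR adjusted p 0.10), with BMPR2 DELX 4 inside the control range. The chromatin assembly genes Chaf1a and Chaf1b, which place histones on new DNA, had log2 fold changes of 0.10 ± 0.11 and 0.15 ± 0.12. Slbp, whose protein binds the stem-loop of histone mRNA, had 0.05 ± 0.08.

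Further genes of the pathway were taken from 3 lists that hold none of the 43. Among 30 other fork and origin genes, 27 were on the positive side (50.7% of all genes), and the median log2 fold change was 0.16. EdgeR called 0 of these 30 (3.96% of all genes higher and 5.15% lower), with 5 higher at an unadjusted p below 0.05 (12.9% of all genes). The polymerase delta subunit Pold2 and the GINS subunit Gins4 had all BMPR2 DELX libraries above ROSA (8.32% of all genes), with log2 fold changes of 0.31 ± 0.11 and 0.12 ± 0.06. As 2 of 30 genes they were not above that background. Of 9 other deoxynucleotide genes 4 were positive, and Dut, the enzyme that removes dUTP and keeps uracil out of DNA, rose to 29.9 ± 2.98 CPM in BMPR2 DELX, against 21.1 ± 2.13 CPM in ROSA (log2 fold change 0.50 ± 0.10, edgeR adjusted p 0.016). Dut had 31.5, 32.7, 29.4 and 25.9 CPM in BMPR2 DELX 1 to 4, against 19.8, 20.1, 24.3 and 20.2 CPM in ROSA 1 to 4, and it passed in all 8 fits without 1 library. The median log2 fold change of that list was -0.04.

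Among 24 other G1/S regulators 13 were positive (50.7% of all genes), with a median of 0.03, and 2 were called higher (3.96% of all genes). Rbl2, the retinoblastoma family member p130 of resting cells, rose to 27.8 ± 1.91 CPM in BMPR2 DELX, against 21.01 ± 0.94 CPM in ROSA (0.40 ± 0.07, edgeR adjusted p 0.012), and passed in all 8 fits without 1 library. Its level was 30.6, 26.5, 27.5 and 26.7 CPM in BMPR2 DELX 1 to 4, against 20.3, 21.3, 20.2 and 22.2 CPM in ROSA 1 to 4, so BMPR2 DELX 4 stood with its group for this gene. Cdkn1b, the CDK inhibitor p27, rose to 33.6 ± 6.60 CPM in BMPR2 DELX, against 23.2 ± 2.24 CPM in ROSA (0.53 ± 0.13, adjusted p 0.039), and held the call only without BMPR2 DELX 4 and without ROSA 4 among the 8 such fits; with the replicate block it was not called. Rbl2 and Cdkn1b are known as brakes on the cell cycle, as is the CDK inhibitor gene Cdkn1c, which had the largest absolute log2 fold change of the list. Cdkn1c averaged 0.742 ± 0.243 CPM in BMPR2 DELX, against 1.23 ± 0.390 CPM in ROSA, with overlapping groups and a log2 fold change of -0.74 ± 0.31 (edgeR adjusted p 0.17). Ccna2, the S and G2 cyclin, had a log2 fold change of 0.54 ± 0.17 (adjusted p 0.078), its kinase gene Cdk2 had 0.12 ± 0.10, Ccnd1 had -0.32 ± 0.33, Rb1 had -0.08 ± 0.16 and the CDK inhibitor gene Cdkn1a had -0.06 ± 0.12.

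The mitotic genes were also on the positive side in the same libraries. Of 30 mitotic genes 9 were called higher (3.96% of all genes) and 30 were positive (50.7% of all genes), with a median log2 fold change of 0.37. The count of 9 was 9 without ROSA 3, 25 without BMPR2 DELX 4, and 0 without ROSA 2. It was 2 without BMPR2 DELX 2 or ROSA 1, 4 without BMPR2 DELX 1 or ROSA 4, and 5 without BMPR2 DELX 3. Higher calls over all genes fell in these fits as well, from 589 to 417 without ROSA 3, 478 without BMPR2 DELX 4 and 213 without ROSA 2. They were 290 without BMPR2 DELX 2, 300 without ROSA 1, 496 without BMPR2 DELX 1, 545 without ROSA 4 and 367 without BMPR2 DELX 3. The 4 with the smallest p were the kinase gene Plk1 (0.63 ± 0.12), the anaphase activator Cdc20 (0.52 ± 0.10), the securin gene Pttg1 (0.46 ± 0.09) and the checkpoint kinase gene Bub1b (0.63 ± 0.14). Plk1 and Cdc20 held their call in 7 of the 8 fits without 1 library, and Pttg1 and Bub1b in 5. The proliferation marker Mki67 had 0.27 ± 0.13 (adjusted p 0.21). Their score was 6.10, 5.92, 5.94 and 5.48 in BMPR2 DELX 1 to 4, against 5.45, 5.45, 5.66 and 5.42 in ROSA 1 to 4, so BMPR2 DELX 4 was lowest of its group and ROSA 3 highest of its group here as well. The difference between the mitotic and the replication genes was not tested.

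**Figure D5:**
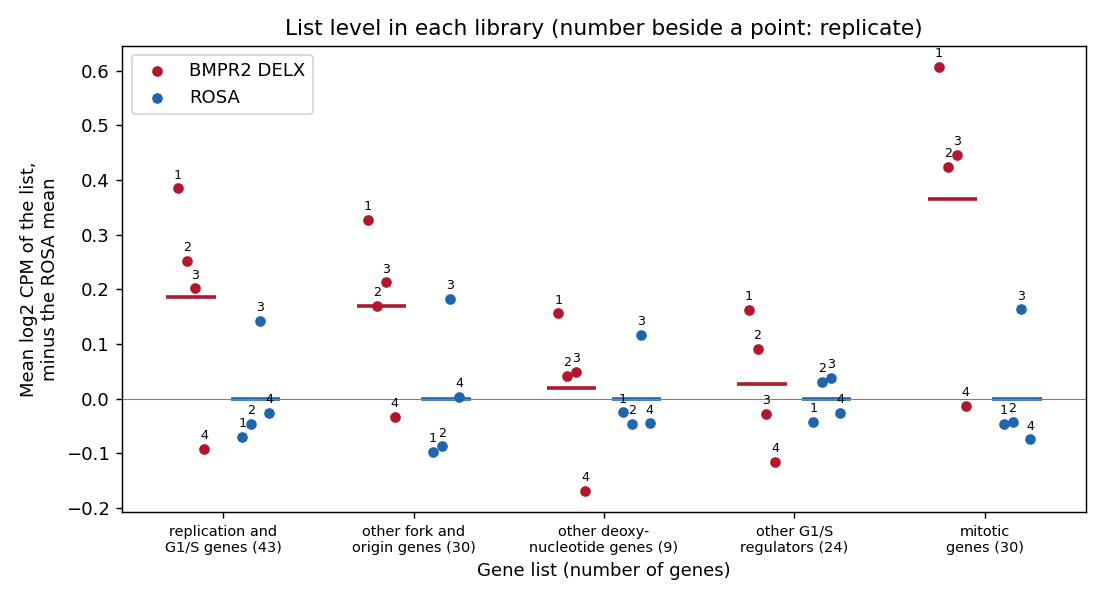
Mean log2 CPM of 5 gene lists in each library, given relative to the ROSA mean of that list (y axis), with BMPR2 DELX left of ROSA, replicate numbers beside the points and group means as lines. In all 5 lists BMPR2 DELX 1 is the highest library and ROSA 3 the highest control, and BMPR2 DELX 4 is the lowest of its group.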

How the data were processed

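Polyadenylated RNA of 8 samples was sequenced. The authors deposited 1 table of raw read counts per gene for each library, and the submitters' processing notes name STAR 2.5.2b, HTSeq and GRCm38. Each table holds 3 count columns (unstranded and each strand); the opposite-strand column was used, since it held 93.4% of strand-assigned counts. The 4 lines that name no gene, 14.7 to 22% of a sample, were left out. Symbols came from GENCODE M21, which held 49412 of the 49671 IDs. A count of 3 corresponds to 0.0687 to 0.104 CPM, counting error only.

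Genes were filtered with filterByExpr, scaled by TMM and tested with the edgeR 4.0.16 quasi-likelihood test (robust, R 4.3.3) with group as the only term, over all genes tested, with Benjamini-Hochberg adjusted p below 0.05 as the call. DESeq2 1.42.0, limma 3.58.1 voom, other scalings and filters, the unstranded column, a replicate block and leaving out libraries were the alternatives. The unstranded column moved a log2 fold change of the set by at most 0.089 (Tk1). Library scores used log2 CPM with a prior count of 2. Genes given by library were those called and, in each role, those with the smallest p and the highest CPM per kilobase; Ccne2, Pold2, Gins4 and Cdkn1c lie outside that rule and were added after their values were seen. The 43 genes and all lists were chosen with earlier results of these data known. The labels state no pairing by replicate number, and the samples were too few to decide if one exists (closing section).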

Additional observations from a re-analysis of the deposited data

Results flagged for a closer look

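In 6 of 86 groups of 4 libraries tested, 1 library stood far from the other 3 of its group, and chance alone does this in about 1 in 20 groups. ROSA 3 stood apart for Cdc6 at 17.2 CPM, for Rfc2 at 30.8 CPM and for Chaf1b at 21.3 CPM. ROSA 4 stood apart for Cdt1 at 22.3 CPM. BMPR2 DELX 4 stood apart for Rfc4 at 6.41 CPM and for Tyms at 27.5 CPM. None of these 6 genes was called by edgeR between the groups.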

How the results depend on the processing

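Of 774 log2 fold changes of the 43 genes under the alternatives, 722 kept their direction and their side of the threshold, 9 lost the call, 21 gained it and 22 changed sign, all in 6 genes near 0. The cause was not tested. DESeq2 called 1081 genes higher and 1185 lower, 7 of the set higher. With no count filter 5 of the set were called higher (2.38% of all genes), and with unstranded counts 2 (4.31%). Leaving out 1 library gave 213 to 545 genes higher, 264 to 721 lower, 0 to 10 of the set higher and a set median of 0.13 to 0.28. Chosen after seeing the data, the fit without ROSA 1 and ROSA 2 called 64 genes higher and 108 lower and 0 of the set, and the fit without BMPR2 DELX 3 and ROSA 3 called 222, 409 and 0. Signs turned for Prim1 at 0.067, Rrm2 at 0.0054 and Ccne1 at -0.0012 without BMPR2 DELX 3 and ROSA 3, for Pole at -0.093, Rrm2 at 0.024, Ccne1 at -0.073 and Ccne2 at -0.035 without ROSA 1 and ROSA 2, for Pole at -0.011 and Ccne2 at -0.059 with voom, and for Rrm2 at 0.0037 with upper-quartile factors. Without 1 library the ranges crossed 0 for Orc6 (-0.17 to 0.014), Prim1 (-0.16 to 0.10), Pole (-0.081 to 0.13), Rrm2 (-0.10 to 0.027), Ccne1 (-0.064 to 0.072) and Ccne2 (-0.18 to 0.25). Same-numbered samples had correlations of 0.00497, 0.21, 0.245 and 0.0935 in their deviations from the group means, and the own number was the best match only for replicates 2 and 3. So few pairs cannot decide if same-numbered samples share more than a number. With the replicate block 563 genes were higher and 682 lower, 1 of the set was called, and the set median was 0.16.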
